A study of Mus musculus with 4 samples.

Results

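Cytosolic ribosomal protein genes encode the proteins that, with ribosomal RNA, build the ribosome of the cytoplasm. They were taken here as every gene whose current symbol is Rpl or Rps followed by digits and at most one letter a, l or x, together with Rplp0, Rplp1 and Rplp2. Of 18193 genes with a probe set assigned to a single symbol, 45 met this rule. They comprised 21 genes of the small subunit, 22 of the large subunit and 2 of the stalk, Rplp0 and Rplp2. The RefSeq gene table holds 82 symbols of this form, and the other 37 had no probe set of a single symbol and were not analysed here. Each gene was read from its brightest probe set by the mean over the 4 arrays, and Rps9 from every probe set.

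The RNA came from whole lenses of mice at postnatal day 0.5, all labelled as males of the 129S3 strain. Of the 4 arrays, 2 were labelled wild type and 2 Hsf4 knockout, and the labels number them 1 and 2 within each genotype. Hsf4 encodes heat shock factor 4, a transcription factor of the lens whose loss is known to cause cataract. The labels used here give neither the deleted part of Hsf4 nor whether the samples were separate animals or pools, so the p-values describe the spread between arrays, part of which may be technical.

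Each ribosome joins a small subunit, which holds the mRNA and reads its codons, to a large subunit, which forms the peptide bond. The stalk of the large subunit, built from Rplp0, Rplp1 and Rplp2, recruits the translation factors. The genes are expressed in all tissues, and the newborn lens makes large amounts of crystallin protein on these ribosomes while its fibre cells go on to lose their organelles. Mammalian ribosomal protein mRNAs typically begin with a 5′ terminal pyrimidine tract, an unbroken run of C and T (U in the RNA) through which growth signals control their translation.

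The start sites of the genes that the results turn on, and of a few others with long or short runs, are shown. Long runs of C and T near the start were more frequent in the family than in all genes, and the choice of members did not use them. Each line gives the 30 bases around the RefSeq start (15 before and 15 from it on), written 5′ to 3′ on the gene's own strand, from the GRCm38.p6 promoter table. Capitals mark the longest unbroken run of C and T. That run can lie wholly before the start, as in Rps25 and Rplp0, and is then not part of the annotated mRNA. The windows lie at chr7:3704026-3704055 on the plus strand for Rps9, chr10:128549154-128549183 on the minus strand for Rpl41, chr7:109519180-109519209 plus for Rpl27a, chr9:44407699-44407728 plus for Rps25, chr5:115559452-115559481 plus for Rplp0, chr7:141447636-141447665 plus for Rplp2, chr2:39005117-39005146 minus for Rpl35, chr11:114668565-114668594 plus for Rpl38 and chr17:27635230-27635259 minus for Rps10.
Rps9: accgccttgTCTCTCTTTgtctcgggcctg
Rpl41: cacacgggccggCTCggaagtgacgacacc
Rpl27a: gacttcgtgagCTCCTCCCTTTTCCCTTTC
Rps25: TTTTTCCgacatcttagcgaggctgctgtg
Rplp0: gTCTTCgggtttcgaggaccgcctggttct
Rplp2: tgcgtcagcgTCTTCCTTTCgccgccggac
Rpl35: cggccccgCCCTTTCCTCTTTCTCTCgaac
Rpl38: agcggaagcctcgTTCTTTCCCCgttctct
Rps10: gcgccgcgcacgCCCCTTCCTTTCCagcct

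Of the 45 genes, 39 had a window in the table (47 windows). A run of at least 8 C or T lay within the 30 bases for 46.2% of the 39 genes and for 13.9% of the 27025 genes in the table. The longest run had a median of 6 bases in the ribosomal protein genes and 4 in all genes. The letters CTTTC, searched on the gene's strand in the same 30 bases, were present in 28.2% and 4.76%. The letters CCGGAAG, searched on both strands over the whole 300-base entry of the table, were present in 48.7% against 9.93%, while TATAAA, searched in the same way, was present in 12.8% against 15.7%. CCGGAAG is the core recognised by ETS-family factors and TATAAA is the TATA box. The windows shown differ among themselves, with a run of 19 bases in Rpl27a, 18 in Rpl35 and 3 in Rpl41, and these matches describe letters only.

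Several measurements of the arrays as a whole bear on the values below. Hsf4 itself was read by 1 probe set, whose normalized intensity was 505 and 138 on wild-type arrays 1 and 2 and 1212 and 413 on those labelled knockout. It was not lower on the arrays labelled knockout, and since the deleted part is not known here it does not check the labels, so every direction below refers to arrays as labelled. Xist, the RNA of the inactive X chromosome, read 605 and 261 on the wild-type and knockout arrays numbered 1 but 58.1 and 9.01 on those numbered 2, although all samples are labelled male, and the Y-linked Eif2s3y read 60.4 and 101 on the arrays numbered 1 and 208 and 161 on those numbered 2. The deposited intensities differed in scale, with array medians of 21.4 and 10.5 in wild type and 18.5 and 6.58 in knockout for numbers 1 and 2. Lens fibre genes marked the tissue as labelled. Cryaa, the alpha A crystallin, chosen as the check of the tissue, read 8512 on both wild-type arrays and 8768 and 9184 on the knockout arrays.

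Of the 45 genes, 42 passed a filter at the median intensity of all probe sets, 20 of the small subunit, 20 of the large subunit and both of the stalk. Rps16, Rpl3l and Rpl39l did not pass; Rpl3l and Rpl39l are paralogs of Rpl3 and Rpl39 known from muscle and testis. With the arrays quantile normalized and a log2 change taken as the mean of log2(intensity + 16) in knockout minus that in wild type, 33 of the 42 genes had a mean of at least 1000 in both genotypes. In these 33, no change under this normalization was larger than that of Rpl13a (0.19) upward or Rpl7 (-0.18) downward. Other scalings shifted the 33 changes, which ran from -0.58 to -0.08 on the deposited values. The range was -0.40 to 0.09 with arrays centred on their medians and 0.03 to 0.55 with arrays scaled by their trimmed means. No member passed an adjusted p of 0.05 in either direction (limma, Benjamini-Hochberg over 11595 genes), where 0.00862% of all genes were called higher and 0.0259% lower. At an unadjusted p under 0.05 the count was also 0, against 2.35% of all genes.

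**Figure D1:**
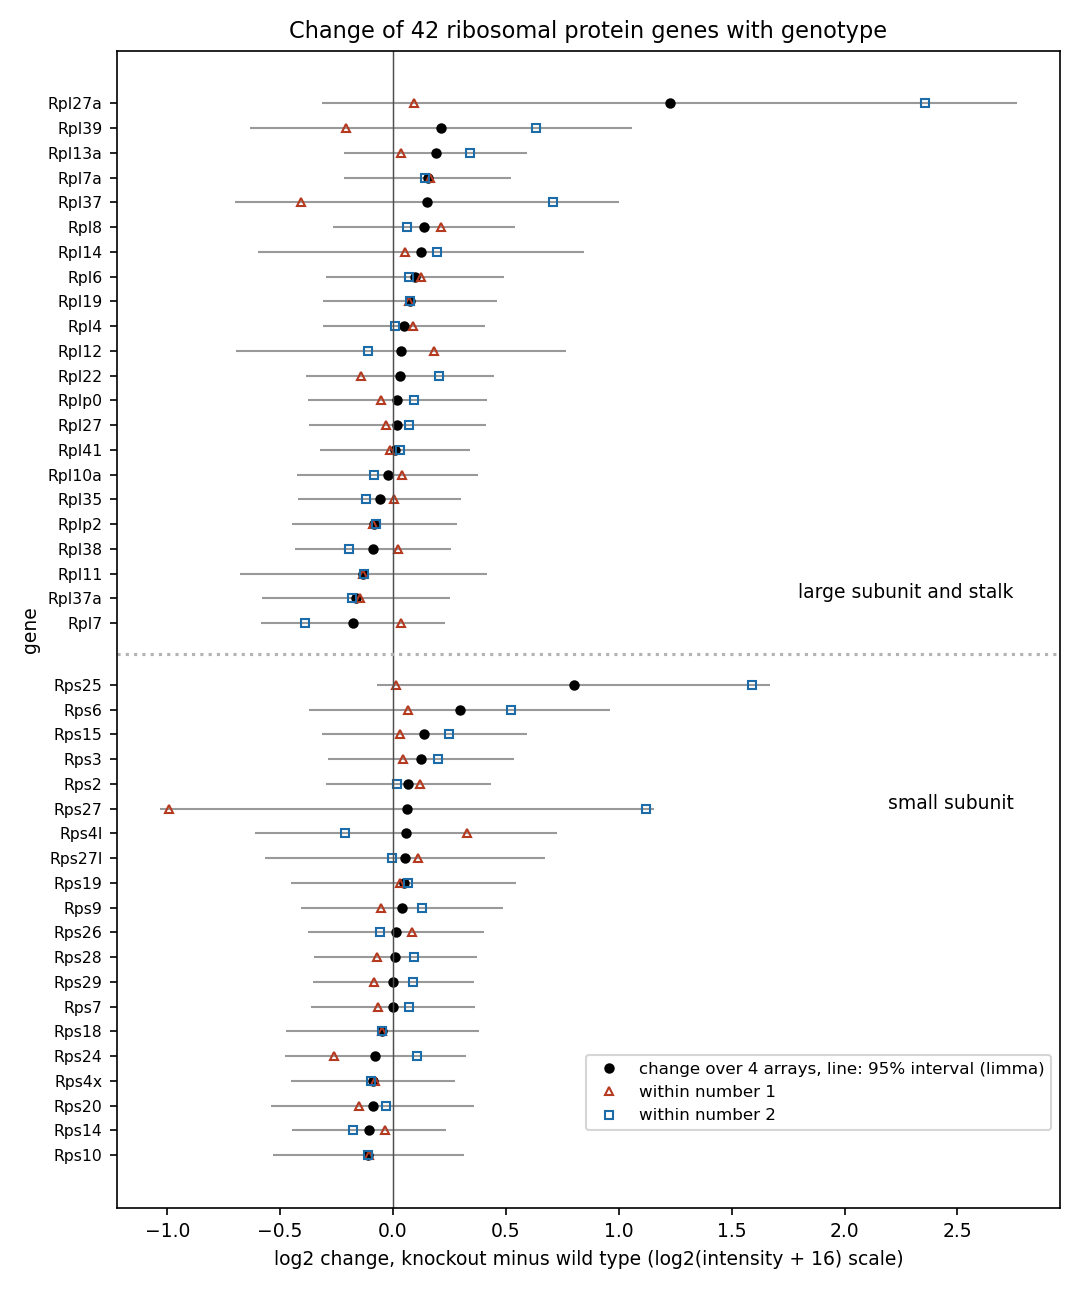
Change in log2(intensity + 16) from wild type to knockout of the 42 ribosomal protein genes that passed the filter, with large subunit and stalk genes above and small subunit genes below. Black points are the change over 4 arrays with its 95% interval from limma, triangles the change between the 2 arrays numbered 1 and squares that between the 2 numbered 2; most points lie near 0, and for Rpl27a, Rps25, Rps27 and Rpl37 the squares lie far to the right of the triangles.

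The precision of these values sets what could be seen. The standard error of the change had a median of 0.18 in the 33 genes at 1000 or more and 0.32 over all genes tested. The 95% intervals of those 33 genes ran, at their widest ends, from 0.625-fold to 1.59-fold under quantile normalization. They do not include the effect of the choice of scaling. Small differences of single genes were therefore within the error of 2 arrays per group. All 33 genes lay at percentile 98.2 of mean intensity or above.

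The family as a whole had a median change of 0.03, with 0.01 between the arrays numbered 1 and 0.07 between those numbered 2, and the median over all genes was -0.01. The standard deviation across the 42 genes was 0.24, against 0.34 across all genes. The sign of the family's median depended on the scaling: it was -0.35 on the deposited values, where all genes had a median of -0.46, -0.17 with arrays centred on their medians (all genes -0.28), and 0.26 with arrays scaled by their trimmed means (all genes 0.00063). Relative to all genes it was 0.04, 0.11, 0.11 and 0.26 in those 4 settings. Ratios between members of the same array are not moved by a constant factor for that array. On the deposited values, the ratio of knockout to wild type in the 33 genes had a median of 0.905 for number 1 and 0.698 for number 2. Measured against that median, 33 of 33 genes lay within 20% for number 1 and 27 of 33 for number 2. The 6 outside for number 2 were Rpl13a, Rpl41, Rps15 and Rps29 above and Rpl7 and Rps27l below.

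In the small subunit, the median change of 20 genes was 0.03. Rps2 and Rps3 sit at the entry of the mRNA channel. Rps2 read 5056 and 5458 on the wild-type arrays and 5487 and 5520 on the knockout arrays, a change of 0.07. The knockout arrays were both above the wild-type arrays, by less than the wild-type arrays differed between themselves. Rps15 read 3738 and 4319 in wild type and 3820 and 5128 in knockout (0.14), with overlapping groups. Rps14, which helps form the platform of the subunit, read 6962 and 7346 in wild type and 6784 and 6498 in knockout. Its change in this brightest probe set was -0.11 (SE 0.15), and the groups did not overlap. Another bright probe set of Rps14 read 4651 and 5002 in wild type and 4930 and 5425 in knockout. That probe set changed the other way, by 0.10 (0.08 for number 1 and 0.12 for number 2), with overlapping groups.

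Rps10 and Rps20 lie in the head of the small subunit and are ubiquitinated when ribosomes collide. Rps10 read 7524 and 5934 in wild type and 6981 and 5494 in knockout (-0.11). Rps20 read 5913 and 4441 in wild type and 5329 and 4346 in knockout (-0.09). In these brightest probe sets of both genes, the array numbered 2 was the lower one in each genotype. That difference was larger than the one between genotypes. Another bright probe set of Rps20 differed between the numbers by -0.08 in wild type and -0.26 in knockout, and between genotypes by -0.15. Another of Rps10 differed between the numbers by -0.25 in wild type and 0.06 in knockout, and between genotypes by 0.09. The remaining Rps10 probe sets past the filter were lower on the array numbered 2 in each genotype. Rps6, the target of the S6 kinases in the mTOR pathway, was read only by a dim probe set, at 182 and 168 in wild type and 192 and 248 in knockout (0.29, SE 0.30).

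The paralogs Rps4x and Rps4l, from the X chromosome and an autosome, did not pass the test. Rps4x read 5571 and 5407 in wild type and 5270 and 5056 in knockout (-0.09), with both knockout arrays below both wild-type arrays. Rps4l read 191 and 231 in wild type and 244 and 197 in knockout (0.06). Its change was 0.33 between the arrays numbered 1 and -0.21 between those numbered 2. Rps27l, the p53-inducible paralog of Rps27, read 1173 and 886 in wild type and 1266 and 884 in knockout (0.05). In this brightest probe set the arrays numbered 2 were again the lower in both genotypes. Another Rps27l probe set of similar intensity read 864 and 1158 in wild type and 945 and 1072 in knockout. There the arrays numbered 2 were the higher in both genotypes. A further Rps27l probe set differed between the numbers by -0.08 in wild type and 0.01 in knockout.

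In the large subunit with the stalk, the median change of 22 genes was 0.03. Rpl13a, also known as a regulator of translation after release from the ribosome, read 4613 and 4687 in wild type and 4735 and 5934 in knockout. The knockout arrays were both higher, one of them by little, and the change was 0.19 (SE 0.18). Rpl7a read 4607 and 4806 in wild type and 5168 and 5302 in knockout (0.15, SE 0.17), the change being 0.17 between arrays numbered 1 and 0.14 between those numbered 2. Rpl8, which lies next to the peptidyl transferase centre, read 3529 and 3582 in wild type and 4093 and 3738 in knockout (0.14). In both Rpl7a and Rpl8 the groups did not overlap, and neither passed the test.

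Lower values were as small in size. Rpl7 read 5407 and 5682 in wild type and 5546 and 4335 in knockout, so that in this probe set only knockout array 2 was below the wild-type arrays (-0.18). A second bright probe set of Rpl7, 1415979_x_at, read 5256 and 5505 in wild type and 4708 and 4970 in knockout (-0.15), both knockout arrays being lower. Rpl37a, a zinc-binding protein of the large subunit, read 4687 and 5707 in wild type and 4228 and 5023 in knockout (-0.17), with overlapping groups. Rpl11, which binds Mdm2 when ribosome assembly fails, read 2962 and 4222 in wild type and 2701 and 3857 in knockout (-0.13). In Rpl11 the arrays numbered 2 stood 0.51 above those numbered 1 in each genotype. Rpl38, whose loss in mice changes the pattern of the vertebrae, read 7201 and 8168 in wild type and 7309 and 7130 in knockout (-0.09). Rpl10a, another member named with a letter, had a change of -0.02.

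Of the stalk proteins, Rplp1 had no probe set of its own symbol. Rplp0, often used as a reference gene, read 4760 and 4104 in wild type and 4585 and 4378 in knockout (0.02, SE 0.18). Rplp2 read 5707 and 5363 in wild type and 5363 and 5081 in knockout (-0.08, SE 0.16). The knockout values of both lay within or next to the wild-type range, and the 95% interval of the ratio was 0.771 to 1.33 for Rplp0 and 0.732 to 1.22 for Rplp2.

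Counting by separation, 6 of 42 genes had both knockout arrays above both wild-type arrays (Rpl13a, Rpl7a, Rpl8, Rps2, Rps25 and Rps6) and 2 had both below (Rps14 and Rps4x). Over all genes the shares were 12.7% higher and 14.3% lower. The split of 6 to 2 depended on the scaling, being 0 to 0 on the deposited values, 1 to 2 after median centring and 2 to 0 after trimmed-mean scaling. Rps25 was the 1 member whose groups did not overlap and differed at least 1.5-fold upward, and no member did so downward, against 1.78% and 3.42% of all genes.

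The arrays numbered 1 and 2 differed in the brighter ribosomal protein genes in a way that repeated between genotypes. In the 33 genes at 1000 or more, the change from number 1 to number 2 in wild type correlated with that in knockout at r = 0.72 (Spearman rho 0.64), where all genes gave 0.43 (rho 0.42). Most of all genes were dimmer than these 33. Other genes of the same brightness were not compared, so the higher r cannot be called a trait of the family. For the change with genotype, number 1 against number 2 gave r = 0.12 (rho 0.12) in the 33 genes and 0.17 (rho 0.11) over all genes. With the 9 dimmer genes included, the 42 members gave r = 0.20 (rho 0.39) for the change with number and -0.26 (rho -0.10) for that with genotype, the former below all genes by both measures. These are correlations across genes, which share the arrays and are not independent replicates, so they carry no p. Of the 33 genes, 25 changed with the number in the same direction in both genotypes (75.8%, all genes 64.9%, the 9 dimmer genes 44.4%), and 18 changed with genotype in the same direction in both numbers (54.5%, all genes 53.7%). Rps19, mutated in Diamond-Blackfan anaemia, was higher by 0.37 and 0.40 on the arrays numbered 2, and Rps18 in its brightest probe set was lower by -0.29 and -0.29. The other Rps18 probe sets past the filter gave -0.12 in wild type and 0.01 in knockout, and -0.35 and -0.15. Rps10 had another bright probe set that was lower only in wild type, and Rps27l another that was higher in both genotypes. The r of 0.72 therefore describes the brightest probe set of each gene. The median size of the difference between numbers was 0.11 in wild type and 0.14 in knockout, and that between genotypes 0.07 and 0.09. The numbers also separate the arrays by overall scale and by Xist, and what the number stands for is not in the labels.

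**Figure D2:**
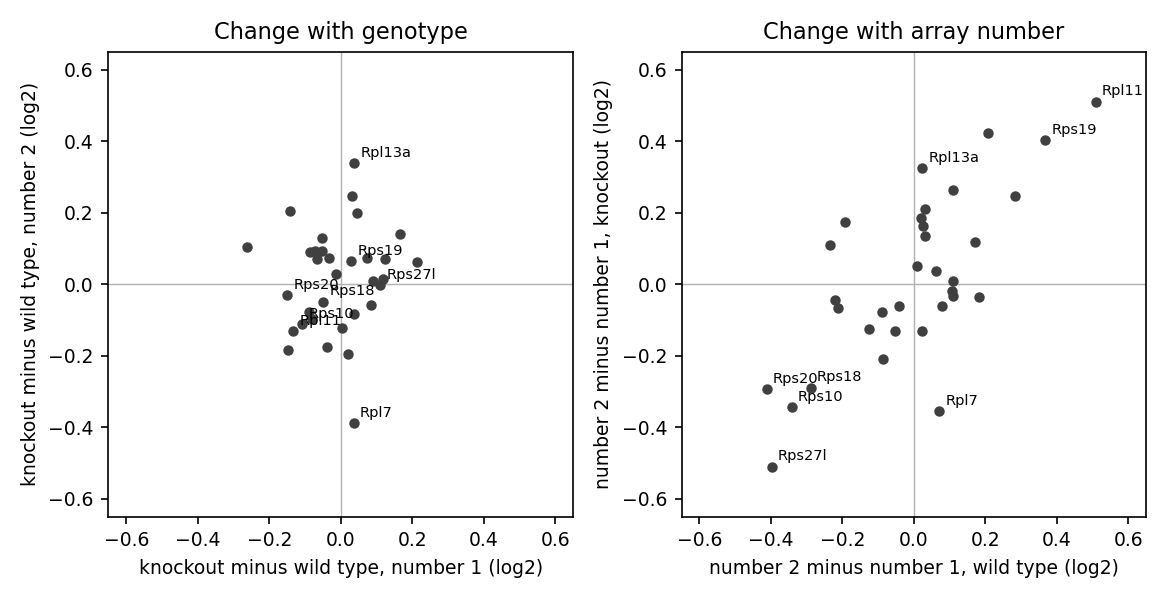
Each point is one of the 33 genes with a mean intensity of at least 1000, read from its brightest probe set. Left, log2 change with genotype between the arrays numbered 1 (horizontal) and those numbered 2 (vertical), r = 0.12; right, log2 change from number 1 to number 2 in wild type (horizontal) and in knockout (vertical), r = 0.72, where Rpl11 and Rps19 lie at the upper right and Rps27l, Rps20, Rps10 and Rps18 at the lower left.

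One probe set of Rps9, a protein of the small subunit body, stood apart from the others. The start of this gene, printed above, holds a run of 9 C and T. The probe set 1434624_x_at read 158 and 54.5 on the wild-type arrays and 1336 and 519 on the knockout arrays. Both knockout arrays were above both wild-type arrays, and in each genotype the array numbered 2 was the dimmer. The log2 change was 2.94 (SE 0.51), 2.96 between the arrays numbered 1 and 2.92 between those numbered 2, a ratio of 7.68 with a 95% interval of 3.45 to 17.1. It ranked 16 of 22519 probe sets by p, and it did not pass the adjusted threshold (limma, adjusted p = 0.326 over all probe sets).

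The main probe set of the same gene, 1433689_s_at, read 2514 and 2567 in wild type and 2425 and 2811 in knockout, a change of 0.04 (SE 0.20). Its knockout values lay on either side of the wild-type values. The third probe set, 1426958_at, did not pass the filter, with intensities of 13.1 and 11.3 in wild type and 15.9 and 1.82 in knockout. The deposited ratio of 1434624_x_at to 1433689_s_at within an array, which no constant factor for an array can move, was 0.0658 and 0.0187 in wild type and 0.559 and 0.144 in knockout. Knockout exceeded wild type in that ratio by 8.50 times for number 1 and 7.68 times for number 2. On the deposited values 1434624_x_at was 7.26 and 4.82 times as bright in knockout, and 1433689_s_at 0.854 and 0.628 times.

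A pair of Rps9 probe sets thus gave different changes on the same arrays. Of the 19 members with at least 2 probe sets past the filter, Rps9 was the 1 whose probe sets differed by more than 1 in log2 change (5.26%, against 3.64% of 5193 genes). Its range was 2.90, and 0.0963% of those genes had a range over 2. The median range was 0.21 for the members and 0.34 for all genes. An ending of _x_at marks, in the array's naming, probes that can bind other transcripts, and the sequences of the probes were not used here, so which transcript 1434624_x_at read was not tested. Leaving out 1 array moved the size of its change. With the first wild-type array dropped the change was 3.59, and with the second dropped 2.29. With the first knockout array dropped it was 2.27, and with the second dropped 3.61.

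**Figure D3:**
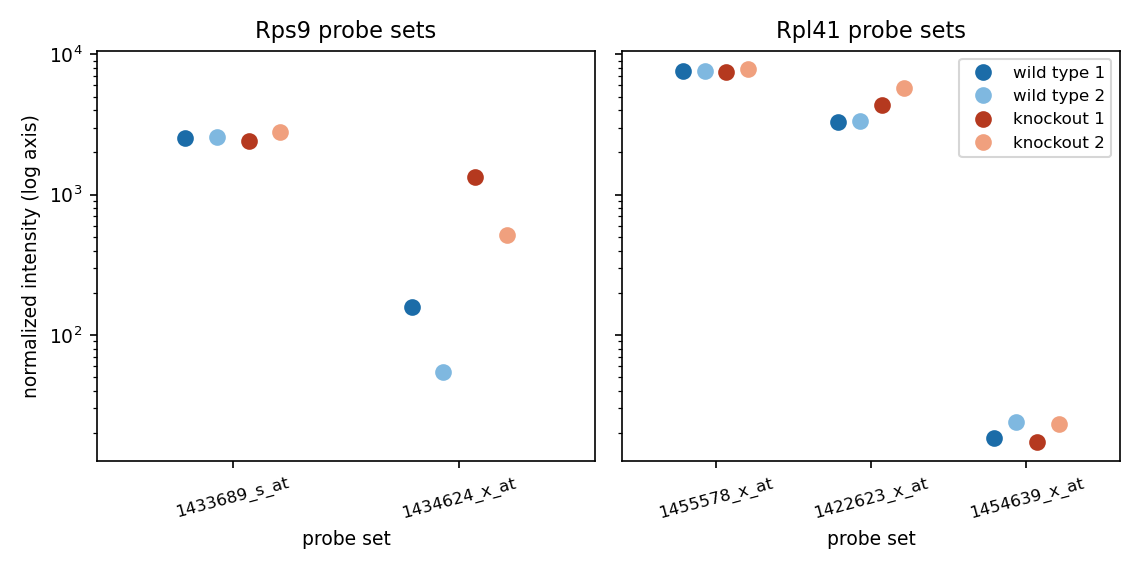
Normalized intensity (log axis) on each of the 4 arrays for the probe sets of Rps9 and Rpl41 that passed the filter. Both knockout arrays lie above both wild-type arrays for 1434624_x_at of Rps9 and for 1422623_x_at of Rpl41, while the other probe sets of the same genes overlap.

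Rpl41, among the shortest proteins known, showed a smaller difference of the same kind. Its probe set 1422623_x_at read 3296 and 3370 in wild type and 4352 and 5743 in knockout, and 1455578_x_at read 7591 and 7644 in wild type and 7524 and 7803 in knockout. The former was higher on both knockout arrays, by 0.40 for number 1 and 0.77 for number 2, a change of 0.58 (SE 0.20, limma adjusted p = 1), and 0.78 without knockout array 1. The latter changed by 0.01. The third, 1454639_x_at, changed by -0.04.

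All probe sets of the family gave the same general picture. Of 98, 83 passed the filter, and their changes had quartiles of -0.09 and 0.10 around a median of 0.01, compared with -0.22 and 0.19 over all probe sets. Of the 83, 79 changed by less than 0.5 in size (95.2%, all probe sets 88.1%). None passed the adjusted threshold, where 0.00888% of all probe sets were called upward and 0.00888% downward. An unadjusted p under 0.05 was found for 2 of them (1 of Rps9 and 1 of Rpl41), against 2.33%. In 12 both knockout arrays were above and in 7 both below, where the shares of all probe sets were 12.6% and 14.4%. With at least 1.5-fold added, 2 were higher (Rps9 and Rps25) and 0 lower, against 2.13% and 3.31%. An _x_at ending was carried by 45.8% of the 83 and by 6.59% of all probe sets. Ribosomal protein genes have many near-identical pseudogene copies, so which copy a probe set reads is uncertain across the family.

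Some probe sets of single genes moved apart within a family member. Those of Rpl13a changed by 0.19, 0.12, 0.30 and -0.09, the first 3 with both knockout arrays above both wild-type arrays and the last with both below. Those of Rpl35 gave -0.06, -0.20, -0.09, -0.01 and 0.01. The 3 of Rps29, with changes of 0.00, -0.02 and -0.03, differed least.

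A further 110 probe sets carried several symbols of which at least 1 was a ribosomal protein, and they belong to no single member. Of these, 101 passed the filter, with a median change of 0.01, 9 higher and 7 lower without overlap, 4 with an unadjusted p under 0.05 and 0 past the adjusted threshold (limma), where the shares of all probe sets were 12.6%, 14.4% and 2.33%. Their changes ran from -0.96 (1447205_x_at, at 39.9 and 52.4 in wild type and 20.5 and 11.6 in knockout) to 1.41 (1453752_at, at 21.1 and 32.0 in wild type and 79.8 and 115 in knockout). Both were chosen for mention after their values were seen.

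The 9 members whose brightest probe set was dim varied most. They were Rpl12, Rpl14, Rpl27a, Rpl37, Rpl39, Rps4l, Rps6, Rps25 and Rps27, and 8 of the 9 probe sets had a plain _at ending, which marks no known binding to other transcripts. Their median change was 0.15, with 0.05 between the arrays numbered 1 and 0.63 between those numbered 2. Under the other scalings that median was -0.35 (deposited values), -0.17 (median centring) and 0.15 (trimmed mean).

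Rpl27a, a large subunit protein near the peptidyl transferase centre, read 70.6 and 101 in wild type and 76.4 and 585 in knockout. Only knockout array 2 stood apart; the start of this gene, printed above, holds the longest run of C and T among the windows shown. The change was 1.22 (SE 0.69, limma adjusted p = 1), made of 0.09 between arrays numbered 1 and 2.36 between those numbered 2. Without knockout array 1 it was 2.58, and without knockout array 2 it was -0.13. On the deposited values the same arrays read 112 and 70.2 in wild type and 107 and 204 in knockout.

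Rps25, needed for initiation at some viral internal entry sites, read 68.1 and 37.7 in wild type and 68.8 and 146 in knockout. The groups did not overlap by a narrow margin, and the change was 0.80 (SE 0.39, limma adjusted p = 1), with 0.01 between arrays numbered 1 and 1.59 between those numbered 2. Rps27 read 41.4 and 23.8 in wild type and 12.8 and 70.4 in knockout, a change of 0.06 made of -0.99 and 1.12. Both wild-type values lay between the knockout values.

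Rpl39, which lines the peptide exit tunnel, read 91.4 and 108 in wild type and 76.9 and 176 in knockout (0.21). Rpl37 read 564 and 241 in wild type and 421 and 405 in knockout (0.15), with -0.41 between arrays numbered 1 and 0.71 between those numbered 2. Rpl14 and Rpl12 changed by 0.12 and 0.03. Under quantile normalization, knockout array 2 was the brightest of the 4 arrays in 6 of these 9 genes (66.7%, all genes 29.5%), and among all 42 it was in 18 (42.9%). On the deposited values it was the brightest for Rpl27a, at 204 against 112 on wild-type array 1. The others of the 9 were brighter on wild-type array 1 than on knockout array 2, as Rps25 at 108 against 47.3.

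Other signals were also high in normalized intensity on knockout array 2. The control probe sets for the 3′ and middle regions of 18S ribosomal RNA read 3228 and 3636 there, against 349 and 432 on wild-type array 2 and 10.6 to 16.7 on the arrays numbered 1. The 5′ control read 7309 and 6898 on the knockout and wild-type arrays numbered 2, and 14.3 and 1.52 on those numbered 1. Of 4 erythroid markers past the filter, 4 were brightest on knockout array 2, and the summed intensity of the 6 with a probe set was 92.9 and 159 in wild type and 137 and 521 in knockout. Hbb-b2, a beta globin, read 22.3 and 34.8 in wild type and 35.1 and 153 in knockout, and Alas2, of haem synthesis, read 35.0 and 87.2 in wild type and 63.6 and 215 in knockout. The part of these signals in the values of the dim members was not tested.

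**Figure D4:**
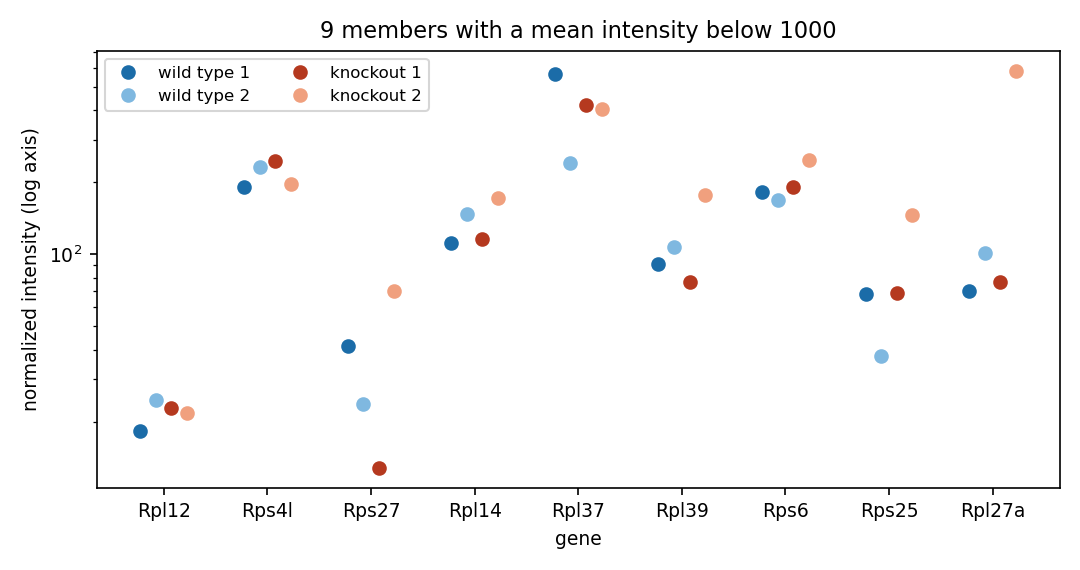
Normalized intensity (log axis) on each of the 4 arrays for the 9 ribosomal protein genes whose mean was below 1000 in at least 1 genotype. Knockout array 2 is the highest point for 6 of the 9 genes, reaching 585 for Rpl27a.

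Ribosomal proteins outside the naming rule were read for 4 of 8 genes, with 0 called in either direction. Rpl22l1, the paralog of Rpl22, read 2564 and 2555 in wild type and 2455 and 1742 in knockout (-0.31). Rpsa, the laminin-receptor protein of the small subunit, read 4365 and 4862 in wild type and 4963 and 5707 in knockout (0.21, and -0.10 on the deposited values). Both had groups that did not overlap, and neither passed the test (adjusted p = 1 for both, limma).

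Mitochondrial ribosomal proteins, which build a separate ribosome for mitochondrial mRNAs, were read for 76 genes. Their median change was 0.15, with 15 higher and 5 lower without overlap and 0 called (limma, 0 with an unadjusted p under 0.05). Of all genes, 12.7% were higher and 14.3% lower without overlap, which is the background for the lists that follow as well. That median was -0.43 on the deposited values and -0.26 after median centring, where all genes had -0.46 and -0.28, and 0.12 with the trimmed mean. Relative to all genes it was 0.16, 0.03, 0.03 and 0.12 under quantile normalization, the deposited values, median centring and the trimmed mean, and that of the cytosolic genes was 0.04, 0.11, 0.11 and 0.26. Which of the families stood higher therefore changed with the scaling. Mrps12 read 127 and 138 in wild type and 174 and 225 in knockout (0.53, and -0.05 on the deposited values), and Mrpl50 read 121 and 167 in wild type and 106 and 91.5 in knockout (-0.47).

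Other mRNAs with a 5′ terminal pyrimidine tract, read for 17 of 20 genes, had a median change of -0.05 under quantile normalization and 0.15 with the trimmed mean, with 1 gene higher (Rpsa) and 1 lower (Npm1) without overlap. Npm1, a nucleolar chaperone of ribosome assembly, read 1765 and 2428 in wild type and 1554 and 1400 in knockout (-0.48, SE 0.24, limma adjusted p = 1). The 8 translation elongation factors had a median of -0.05, and 0.06 with the trimmed mean. Eef1a2, the form of muscle and nerve, changed by -0.28 with both knockout arrays below both wild-type arrays, while Eif5a2 changed by 0.28 with overlapping groups and by -0.24 on the deposited values. None of these genes passed the adjusted threshold, and 0 had an unadjusted p under 0.05.

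Among 31 translation initiation factors the median was 0.10 (-0.48 on the deposited values), and 4 were higher and 3 lower without overlap. Eif5b, the GTPase that joins the subunits at the start codon, read 1129 and 1191 in wild type and 210 and 490 in knockout. Both knockout arrays were far below, at -1.80 (SE 0.37), -2.34 for number 1 and -1.25 for number 2, and the adjusted p was 0.434 (limma). Eif4a2, an RNA helicase of the cap complex, read 1106 and 1026 in wild type and 691 and 768 in knockout (-0.54, adjusted p = 1).

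Ribosome biogenesis factors were read for 61 genes, with a median of 0.06, 7 higher and 8 lower without overlap and 0 called (limma, 1 with an unadjusted p under 0.05). That gene was Rrs1, which acts in assembly of the large subunit, at 170 and 168 in wild type and 114 and 71.0 in knockout (-0.79, adjusted p = 1). The 13 RNA polymerase I genes, whose products transcribe ribosomal RNA, had a median of 0.12. Polr1a, the largest subunit of that polymerase, read 35.1 and 53.6 in wild type and 28.3 and 26.4 in knockout (-0.46). Taf1a, of its initiation complex, read 22.8 and 23.9 in wild type and 37.6 and 34.3 in knockout (0.40).

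Growth signalling to ribosome synthesis was read for 18 genes, with a median of 0.18, 4 higher and 1 lower without overlap, and 0 called. Tsc2, an inhibitor of mTOR complex 1, read 292 and 212 in wild type and 567 and 368 in knockout (0.83, limma adjusted p = 1). Mtor read 208 and 202 in wild type and 275 and 325 in knockout (0.51, and -0.08 on the deposited values). On the deposited values the medians of the biogenesis, RNA polymerase I and growth signalling lists were -0.45, -0.42 and -0.32, next to -0.46 for all genes.

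**Figure D5:**
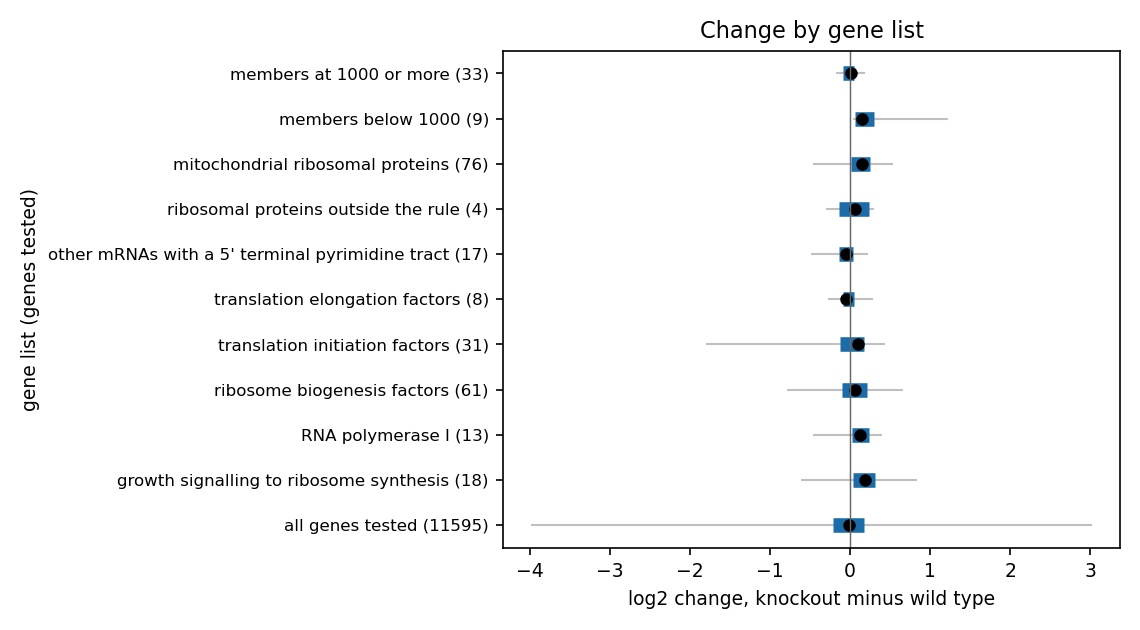
Log2 change (knockout minus wild type) under quantile normalization in the ribosomal protein genes and the related lists, with the number of genes tested in brackets. Points are medians, thick bars the quartiles and thin lines the range; the quartiles of every list shown lie between -0.21 and 0.31, and the sign of the small medians depends on the scaling.

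Among cell type markers, the striated muscle, fibroblast and erythroid lists had the largest medians in size under quantile normalization (-1.70, -1.30 and 0.97). Most of the other marker lists also had larger medians in size than the 0.03 of the ribosomal protein genes. Of 20 striated muscle genes, 16 were lower and 1 higher without overlap, with a median of -1.70, and the summed intensities of the 26 genes with a probe set were 3664 and 1919 in wild type and 511 and 558 in knockout. Actc1, a muscle actin, was among the 3 that fell past the adjusted threshold, reading 443 and 218 in wild type and 7.84 and 2.18 in knockout (-3.98, adjusted p = 0.00719, limma). The others were Myl1, a muscle myosin light chain, at 489 and 255 in wild type and 8.96 and 16.5 in knockout, and Acta1, skeletal actin, at 909 and 370 in wild type and 38.7 and 53.1 in knockout. Of 9 fibroblast and pericyte genes, 6 were lower and 0 higher without overlap, with a median of -1.30 and sums of 2014 and 2355 in wild type and 1529 and 1169 in knockout. Col1a1, a collagen, was at 116 and 92.1 in wild type and 13.7 and 21.5 in knockout, and Col3a1, another collagen, at 476 and 710 in wild type and 114 and 233 in knockout. The 14 neural retina genes had a median of -0.42 and sums of 3272 and 3833 in wild type and 3157 and 2167 in knockout. Their lowest p belonged to Rcvrn, at 33.5 and 29.7 in wild type and 23.5 and 1.54 in knockout, and Neurod4, at 413 and 513 in wild type and 445 and 103 in knockout.

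Among the other lists, the medians were -0.02 for 11 macrophage genes, 0.22 for 7 endothelial genes, 0.30 for 6 pigment cell genes and -0.14 for 8 lens epithelium genes, and that of 18 lens fibre genes was -0.04 (0.47 with the trimmed mean), with 0 called in each. Single lens fibre genes differed more. Bfsp1, of the beaded filament of fibre cells, read 5220 and 3785 in wild type and 2186 and 2060 in knockout (-1.06, limma adjusted p = 0.434), both knockout arrays being lower. Its partner Bfsp2, mentioned after its values were seen, read 180 and 268 in wild type and 60.1 and 2907 in knockout, with the knockout arrays on either side. Mip, the lens aquaporin, read 4228 and 3670 in wild type and 4896 and 4746 in knockout (0.29, and -0.04 on the deposited values).

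In the lens epithelium list, Tfap2a had a change of -0.71 and Sox2 of -0.77, both transcription factors, with overlapping groups. Csf1r and C1qc of the macrophage list had changes of 0.30 and 0.24, Tie1 and Cdh5 of the endothelial list of 0.50 and 0.28, and Tyrp1 and Pmel of the pigment list of 0.32 and 0.28 (limma adjusted p = 1 for all 8). Csf1r (-0.31), C1qc (-0.29), Cdh5, Tyrp1 and Pmel changed sign on the deposited values, where the macrophage, endothelial and pigment cell medians were -0.41, -0.34 and -0.22. All of these cells carry ribosomal protein mRNAs, and the part of a different mix of cells in the members' values was not tested. In whole lenses, fewer cells of a type and less RNA per cell cannot be told apart.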

How the data were processed

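The deposited table holds a linear intensity for each probe set on each array; the sources used here do not state how the authors summarised, corrected and scaled these intensities. Probe sets were named from the platform annotation, with symbols updated through the RefSeq gene table (GRCm38.p6). The 4 arrays (45101 probe sets) were quantile normalized, 16 was added and log2 taken, and 64 control probe sets were then left out. Probe sets with a mean log2 under the median, 4.86 (an intensity of about 13.0), were dropped. The brightest probe set stood for each gene. Genotypes were compared with limma 3.58.1 in R 4.3.3 (eBayes with a trend, Benjamini-Hochberg over all genes), on 2 arrays per group, whose number limits the precision. The fit was tested on simulated data. Fold changes on this scale understate those of dim probe sets.

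The members and lists were chosen with earlier results of these data known. Genes named are the 8 largest changes each way among members, every Rps9 probe set, members ending in a, l or x, the stalk genes, and from each other list the genes past the threshold or otherwise the 2 with the lowest p. Alternatives varied scaling, filter, offset, variance model, probe set choice, array number and arrays left out; 2 were added after seeing the data, the change within each number and the deposited ratios relative to the median member.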

Additional observations from a re-analysis of the deposited data

Results flagged for a closer look

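Control probe sets outside the comparison had a higher normalized intensity on knockout array 2 than on either wild-type array. Those of 18S ribosomal RNA read 3228 (3′ region) and 3636 (middle region), against at most 349 and 432 in wild type. Those of the bacterial bioB spike, added in equal amount to each hybridisation by the array's design, read 595.6, 439.2 and 518.7 (3′, 5′ and middle), against at most 209, 171 and 227, and bioC (5′) read 1197 against at most 593. These values are after quantile normalization, which raised dim readings of knockout array 2 and lowered those of wild-type array 1. For Rps9 1434624_x_at, 519 on the former array was 179 as deposited, and 158 on the latter was 246. The part of the normalization in the higher spike readings was not tested. The probe set 1453752_at, which carries several symbols including a ribosomal protein and so belongs to no member, read 79.82 and 115 on the knockout arrays, both above the brighter wild-type array at 32.0. No groups of 4 or more arrays were available, so single arrays were not compared with their group for outliers.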

How the results depend on the processing

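The counts of 0 members called higher and 0 lower held in each setting run on all 4 arrays without the number as a term. The counts without overlap and the medians followed the scaling. On the deposited values the counts without overlap were 0 and 0, and the medians -0.35 (all members), -0.38 (small subunit), -0.33 (large) and 0.11 (members minus all genes). Median centring gave 1 higher, -0.17, -0.20, -0.16 and 0.11, and trimmed-mean scaling 2 higher, 0 lower, 0.26, 0.25, 0.28 and 0.26. The mean of all probe sets gave 1 lower and a large subunit median of 0.059, and the change within number 2 a large subunit median of 0.066. With 1 array left out, 0 to 1 members were called higher (Rpl27a without knockout array 1), 11 to 19 were higher and 9 to 12 lower without overlap, the large subunit median ran from -0.0084 to 0.053, members minus all genes from -0.0066 to 0.072 and Rps9 1434624_x_at from 2.27 to 3.61. For the counts without overlap with an array left out, no share of all genes is given here as background. A group of 1 array falls outside the other group more easily, so those counts cannot be compared with the counts on all 4 arrays. Sign changes among the 42 uncalled members numbered 27 on the deposited values, 22 after median centring, 13 with the trimmed mean, 1 with an offset of 1, 5 after averaging the probe sets of a gene, 13 when the dimmest one was taken, and 8 to 18 with an array left out.

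The array number as a replicate block, which the labels do not explain, left every change as it was and called 1 member, Rpl27a (1.22, adjusted p = 9.35e-05), and the Rps9 and Rpl41 probe sets 1434624_x_at (2.94, 6.17e-40) and 1422623_x_at (0.58, 0.0017), with 200 of 11595 genes called against 4 without it (limma). With only 2 pairs the pairing could not be settled, the deviations of same-numbered arrays from their group means correlating at 0.31.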
